A study of Mus musculus with 6 samples.

Results

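The Hedgehog pathway was described in colon tissue with tumors through 9 genes, Ihh, Shh, Gas1, Ptch1, Smo, Gli1, Gli2, Gli3 and Hhip, of the 37325 gene symbols on the arrays. The genes were chosen by name with the RG@M-γ-CD and PBS values of these same arrays known. Their differences between the groups are therefore given as a description with no test. All features carrying one of these symbols were taken, 15 of 56605, and 11 of them, standing for 8 genes, passed the filter on dim signals. Gli2 was well above background on 0 of the 6 arrays. The samples were 6 C57BL/6 mice, each with colitis-associated tumors that followed an injection of the carcinogen AOM (10 μg/g) and drinking water with 2% DSS, an irritant of the colon wall. In 3 mice RG@M-γ-CD was given by mouth, regorafenib (RG, a multi-kinase inhibitor) enclosed in mannose-modified γ-cyclodextrin, at 30 μg/g of the complex or 10 μg/g of RG. The other 3 mice received PBS, and no mouse of either group was free of AOM and DSS. Treatment lasted 21 days, colons were taken 14 days later, and each mouse had 1 array. The methods give the mice as male and 6 to 8 weeks old when bought. The tissue is labelled colon tumor and described in the methods as colon with tumors, and no separation of tumor, mucosa and muscle is described in the sources used here.

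Hedgehog ligands are secreted proteins that bind Ptch1 on the receiving cell, which releases Smo from inhibition and lets the Gli transcription factors act on their targets. Ptch1, Gli1 and Hhip are themselves targets, so their RNA is commonly read as an output of the pathway, and Ptch1 and Hhip in turn hold the ligand back. In the adult colon Ihh is made by differentiated epithelial cells, and the responding cells lie in the mesenchyme, among them smooth muscle and subepithelial stromal cells. Gas1 is a membrane-anchored co-receptor that binds Hedgehog ligands together with Cdon and Boc, and it was first known as a gene of growth-arrested cells.

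Values are log2 intensities minus the 75th percentile of all gene features of that array, so that a difference of 1 is a doubling. Levels of different genes cannot be compared, since every probe has its own brightness. Between 49.6% and 55.1% of the gene features were well above background per array, 0 gene spots were saturated, and the 3 arrays per group limit the precision. Across 19087 genes tested with limma, 0 (0%) passed an adjusted p of 0.05, by the methods' t-test also 0, and 419 lay at an unadjusted p below 0.05. Of these 165 (0.864%) were higher and 254 (1.33%) lower with RG@M-γ-CD. All 3 RG@M-γ-CD arrays lay above all PBS arrays for 2.38% of the genes and below them for 2.19%. The epithelial markers of the colon were bright on every array, and the mean of 8 of them lay between 5.95 and 6.53.

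The labels assign the arrays to the groups, and a clustered heat map in the study sets RG@M-γ-CD replicate 1 beside PBS replicates 2 and 3, and PBS replicate 1 beside RG@M-γ-CD replicates 2 and 3. Whether these arrays were exchanged was not tested. Each member is therefore given on every array, and its difference is also given over replicates 2 and 3 of each group alone. All arrays came from 1 slide and 1 scan. The 3 RG@M-γ-CD arrays and PBS replicate 1 shared row 1 of the slide, and PBS replicates 2 and 3 shared row 2, so the difference within row 1, against 1 PBS array, is given too.

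The promoters of 7 of the 9 members, those without Gli1 and Shh, were taken from RefSeq (GRCm38.p6), each running from 250 bases before the transcript start to 50 bases after it. The Gli consensus TGGGTGGTC, read on both strands, was in 0 of these 7 and in 0.253% of all 32851 promoters of this length. Its core GGGTGG, which every consensus match contains, was in 5 of the 7 and in 31.5% of all promoters. All 7 windows were richer in G and C (62.3% to 76.3%) than the median promoter (52.7%). The core was not counted in promoters of like content, so these shares show no excess. Gas1 is shown because it differed most between the groups, and Hhip and Ptch1 because they are targets of the pathway that varied between arrays in different ways. Capitals mark the core, or CCACCC where it is read on the other strand. The windows lie on the minus strand at chr13:60177486-60177785 for Gas1, chr8:80057959-80058258 for Hhip and chr13:63565686-63565985 for Ptch1.
Gas1: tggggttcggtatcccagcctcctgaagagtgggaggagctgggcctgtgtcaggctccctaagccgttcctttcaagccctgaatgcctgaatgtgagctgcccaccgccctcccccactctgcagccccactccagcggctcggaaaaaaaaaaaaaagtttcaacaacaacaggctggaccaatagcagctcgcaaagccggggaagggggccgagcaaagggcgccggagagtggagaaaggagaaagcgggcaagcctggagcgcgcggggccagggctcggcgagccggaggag
Hhip: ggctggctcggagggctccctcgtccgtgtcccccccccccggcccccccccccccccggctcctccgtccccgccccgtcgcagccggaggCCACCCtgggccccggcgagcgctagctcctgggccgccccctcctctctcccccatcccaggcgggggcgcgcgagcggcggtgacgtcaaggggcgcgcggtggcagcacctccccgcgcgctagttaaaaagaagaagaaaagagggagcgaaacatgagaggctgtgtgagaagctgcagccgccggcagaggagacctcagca
Ptch1: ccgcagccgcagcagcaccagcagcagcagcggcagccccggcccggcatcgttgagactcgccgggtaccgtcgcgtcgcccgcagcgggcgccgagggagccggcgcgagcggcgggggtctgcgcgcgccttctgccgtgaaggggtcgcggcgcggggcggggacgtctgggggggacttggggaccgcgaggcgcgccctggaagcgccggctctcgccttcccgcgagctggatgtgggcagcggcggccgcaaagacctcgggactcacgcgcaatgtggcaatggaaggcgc
The core occurred 1 time in the Hhip window and 0 times in the others. The G and C content was 62.3% for Gas1, 73.7% for Hhip and 76.3% for Ptch1, against a median of 52.7% over all promoters. The number of CG pairs was 17, 30 and 47 in the same order, against a median of 7. A match describes the letters only, and neither binding nor methylation was measured.

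Ihh, the main Hedgehog ligand of the colon epithelium, was measured by 2 probes. The brighter one (A_55_P2152225, chr1:74991906-74991965 on mm9, the build of the scanner files) read 4.89, 4.47 and 4.36 in RG@M-γ-CD replicates 1, 2 and 3. It read 4.08, 4.43 and 3.75 in PBS replicates 1, 2 and 3. The highest array was an RG@M-γ-CD array and the lowest a PBS array, but PBS replicate 2 lay above RG@M-γ-CD replicate 3, so that the groups overlapped. The means were 4.57 ± 0.28 (SD, n = 3) with RG@M-γ-CD and 4.08 ± 0.34 (SD, n = 3) with PBS, a difference of 0.49 (SE 0.24), or 1.40-fold. It was 0.33 over replicates 2 and 3 alone and 0.50 within row 1 of the slide. The other probe (A_52_P403398) gave a difference of 0.58, and the 2 probes followed each other over the 6 arrays with r of 0.95 and rho of 0.94.

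Shh, the ligand of embryonic gut that adult colon makes near the crypt base, read -1.23, -1.04 and -1.36 in the RG@M-γ-CD replicates and -0.20, -1.89 and -1.31 in the PBS replicates, in the order 1, 2 and 3. The PBS arrays held both the highest and the lowest value, and the RG@M-γ-CD arrays lay between them. The means were -1.21 ± 0.16 (SD, n = 3) and -1.13 ± 0.86 (SD, n = 3), and the difference was -0.08 (SE 0.42). It was 0.40 over replicates 2 and 3 and -1.01 within row 1, where the high PBS replicate 1 is the only control.

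Gas1 was measured by 1 probe (A_55_P2805510, chr13:60276217-60276276 on mm9). It read -0.15, 0.22 and 1.08 in RG@M-γ-CD replicates 1, 2 and 3 and -0.98, -0.75 and -1.51 in PBS replicates 1, 2 and 3. All RG@M-γ-CD arrays lay above all PBS arrays, which held for 1 of the 8 members and, in this direction, for 2.38% of all genes tested. The means were 0.39 ± 0.63 (SD, n = 3) and -1.08 ± 0.39 (SD, n = 3), a difference of 1.46 (SE 0.36), or 2.76-fold. The difference was 1.78 over replicates 2 and 3 alone and 1.36 within row 1. Leaving out each array in turn gave between 1.12, without RG@M-γ-CD replicate 3, and 1.73, without RG@M-γ-CD replicate 1. In bulk tissue, more cells of a type and more RNA per cell cannot be told apart.

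Ptch1, the receptor that inhibits Smo and is itself a target, was measured well above background by 2 probes. The brighter one (A_65_P18909, chr13:63638793-63638852 on mm9, assigned by the file to an Ensembl transcript) read -2.55, -0.68 and -2.18 in the RG@M-γ-CD replicates and -0.51, -2.50 and -2.47 in the PBS replicates. PBS replicate 1 and RG@M-γ-CD replicate 2 were high and the other arrays were close together, so that each group had 1 high array. The means were -1.80 ± 0.99 (SD, n = 3) and -1.83 ± 1.14 (SD, n = 3), and the difference was 0.02 (SE 0.70). It was 1.06 over replicates 2 and 3 and -1.29 within row 1, so the sign depended on which of the high arrays was kept. The other probe (A_51_P127435), assigned to the RefSeq transcript, also had RG@M-γ-CD replicate 2 and PBS replicate 1 highest, with a range of 1.88-fold over the 6 arrays against 4.11-fold for the brighter probe. The probes had an r of 0.82 and a rho of 0.43 over the 6 arrays.

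Smo, the membrane protein that passes the signal on, varied least of the 8 members. It read 3.20, 2.75 and 3.14 in the RG@M-γ-CD replicates and 2.93, 2.98 and 3.30 in the PBS replicates. The groups overlapped over most of their range, and the lowest array was RG@M-γ-CD replicate 2. The difference was -0.04 (SE 0.20) over all arrays, -0.19 over replicates 2 and 3 and 0.11 within row 1. The SD of Smo over all 6 arrays was 0.20, below the median of 0.27 over all genes tested. The SDs of Gas1 (0.93), Ptch1 (0.96) and Gli3 (0.86) were above those of 93.0% of the genes or more.

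**Figure D1:**
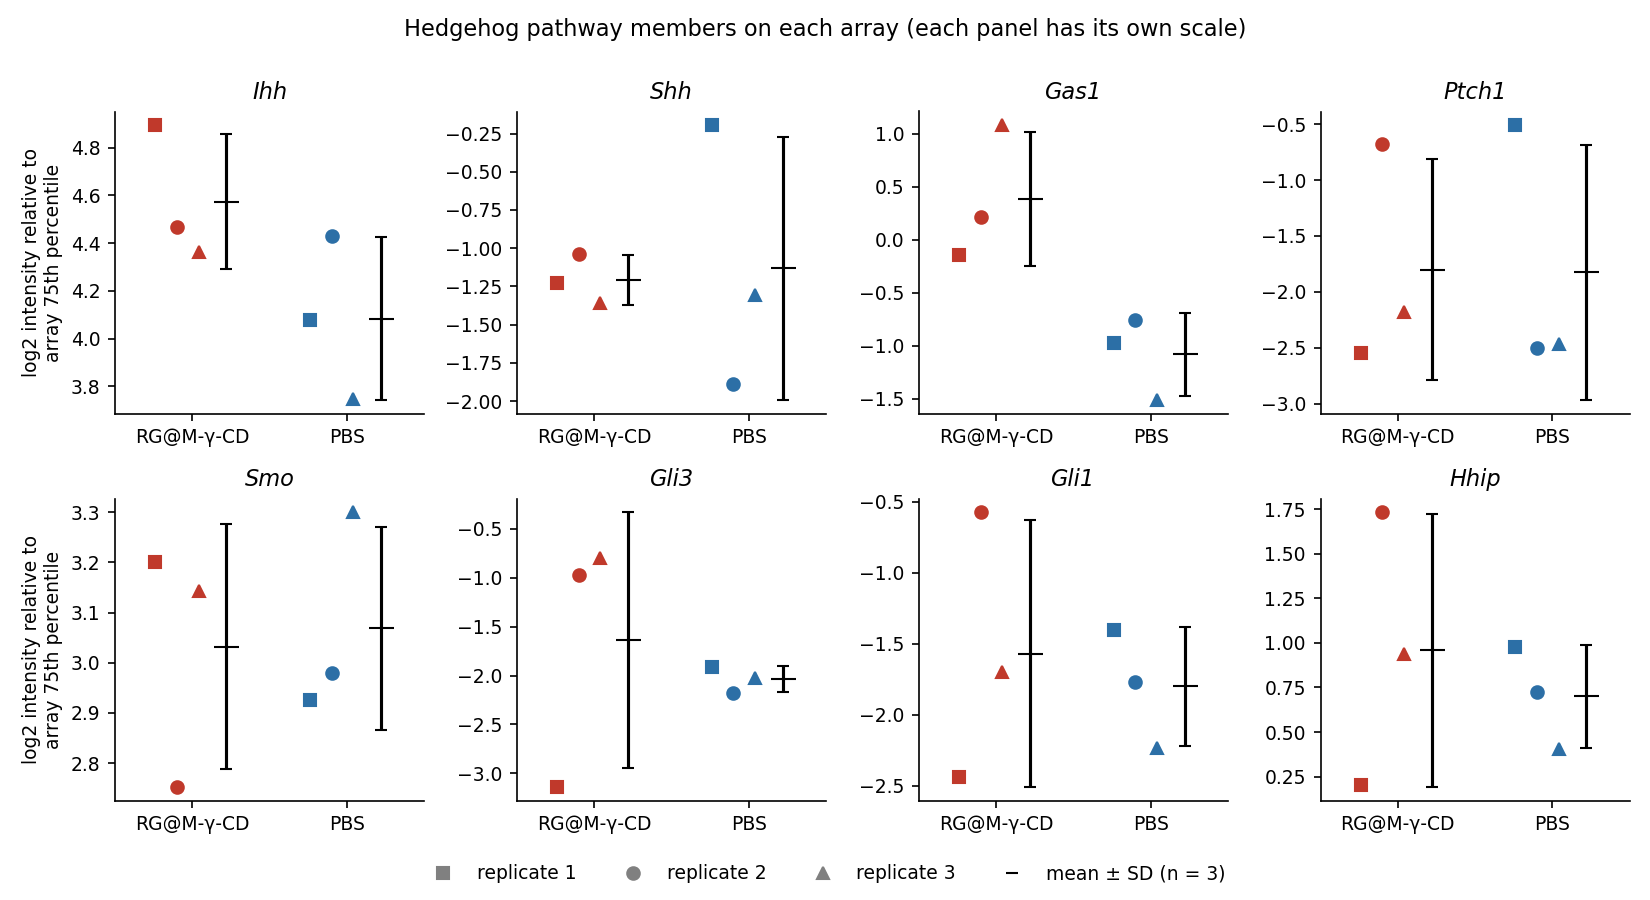
The log2 intensity of 8 members relative to the array's 75th percentile (y axis, its own scale in each panel) is plotted for the RG@M-γ-CD (red) and PBS (blue) arrays, with squares, circles and triangles for replicates 1, 2 and 3 and black bars for the mean ± SD (n = 3). The groups are apart for Gas1, where every RG@M-γ-CD array is at -0.15 or higher and every PBS array at -0.75 or lower, and they overlap in the other panels.

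Gli3, the Gli factor that mostly acts as a repressor without ligand, read -3.14, -0.97 and -0.79 in the RG@M-γ-CD replicates and -1.91, -2.17 and -2.02 in the PBS replicates. RG@M-γ-CD replicates 2 and 3 were the highest arrays and replicate 1 the lowest of all 6, with the PBS arrays between them. The means were -1.63 ± 1.31 (SD, n = 3) and -2.03 ± 0.13 (SD, n = 3), and the difference was 0.40 (SE 0.61). It was 1.21 over replicates 2 and 3 alone and 0.27 within row 1.

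Gli1, the activator whose own transcription depends on the pathway, read -2.44, -0.57 and -1.70 in the RG@M-γ-CD replicates and -1.40, -1.77 and -2.23 in the PBS replicates. The RG@M-γ-CD arrays again held both ends of the range, replicate 2 the highest value and replicate 1 the lowest. The difference was 0.23 (SE 0.49) over all arrays, 0.87 over replicates 2 and 3 and -0.17 within row 1. A further Gli1 probe (A_55_P2080658) stayed below that mark on all 6 arrays.

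Hhip, a membrane protein that binds and sequesters the ligands, was measured by 2 probes. The brighter one (A_66_P132865, chr8:82489879-82489938 on mm9) read 0.20, 1.73 and 0.94 in the RG@M-γ-CD replicates and 0.98, 0.72 and 0.40 in the PBS replicates. The array order was the one seen for Gli1, from RG@M-γ-CD replicate 2 through PBS replicate 1, RG@M-γ-CD replicate 3, PBS replicate 2 and PBS replicate 3 to RG@M-γ-CD replicate 1. The difference was 0.26 (SE 0.39) over all arrays, 0.77 over replicates 2 and 3 and -0.02 within row 1. The other probe (A_55_P1969276) gave 0.12 and had the same order, with an r of 0.98 to the first.

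Over the 8 members, 6 differences were above 0 and 2 below, with a median of 0.24 against -0.01 over all genes tested. Of all 19087 genes tested, 9003 had a difference above 0. Within row 1 of the slide the differences of Shh, Ptch1, Gli1 and Hhip were below 0 and those of the other members above. The members were chosen with these values known, so the count and the median are no test.

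The members were then set against each other over the 6 arrays. These correlations describe 6 points that share a slide, a scaling and the tissue pieces, and they carry no test. Of the 28 pairs, Gli1 and Hhip were the closest, with r of 0.99 and rho of 1, 0.95 without the 2 arrays farthest from the median of Gli1, and 0.99 within the groups, after each group's mean was taken off. Among 19086 other genes Hhip ranked 9 by its r to Gli1, and Gli1 ranked 12 by its r to Hhip. Ptch1 followed both, with r of 0.82 and rho of 0.89 to Gli1 and r of 0.78 and rho of 0.89 to Hhip, but it ranked only 1589 for Gli1. The 3 target genes thus had similar orders across arrays, none of which separated the groups. For Ptch1 this held for the brighter probe, while the other probe was lowest on RG@M-γ-CD replicate 3.

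The ligands did not share that order. Ihh had an r of -0.03 to Gli1, with a rho of -0.09, and an r of -0.03 to Hhip. Shh had an r of 0.80 and a rho of 0.60 to Ptch1, which fell to 0.15 without PBS replicate 1 and RG@M-γ-CD replicate 2, so that this relation rested on those arrays. Smo ran against the targets, with r of -0.92 and rho of -0.89 to Gli1, over a range of 1.46-fold.

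Gas1 stood outside the pattern of the targets. Its r was 0.31 (rho 0.31) to Gli1, 0.40 (rho 0.31) to Hhip and 0.04 (rho 0.03) to Ptch1, and Gli1 ranked 4510 of 19086 by its r to Gas1. Its highest r to a member was 0.57 (rho 0.60) to Ihh, with -0.07 within the groups. Among the 5 genes with the highest r to Gas1 over the 6 arrays were Gnl1 (r 0.99, rho 1), 4930432K21Rik (r 0.99, rho 0.94), Azin2 (r 0.98, rho 1) and Mgrn1 (r 0.97, rho 0.94), which kept r between 0.86 and 0.98 without RG@M-γ-CD replicate 3 and PBS replicate 3. For Ihh the 5 were Usp30 (r 0.995, rho 1), Evx2 (r 0.98, rho 0.77), Klhl36 (r 0.97, rho 0.77), Vmac (r 0.96, rho 0.83) and ENSMUST00000088648 (r 0.96, rho 0.83), which kept r between 0.76 and 0.999 without PBS replicate 3 and RG@M-γ-CD replicate 1. None of the genes named here is a Hedgehog gene of the lists used here.

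**Figure D2:**
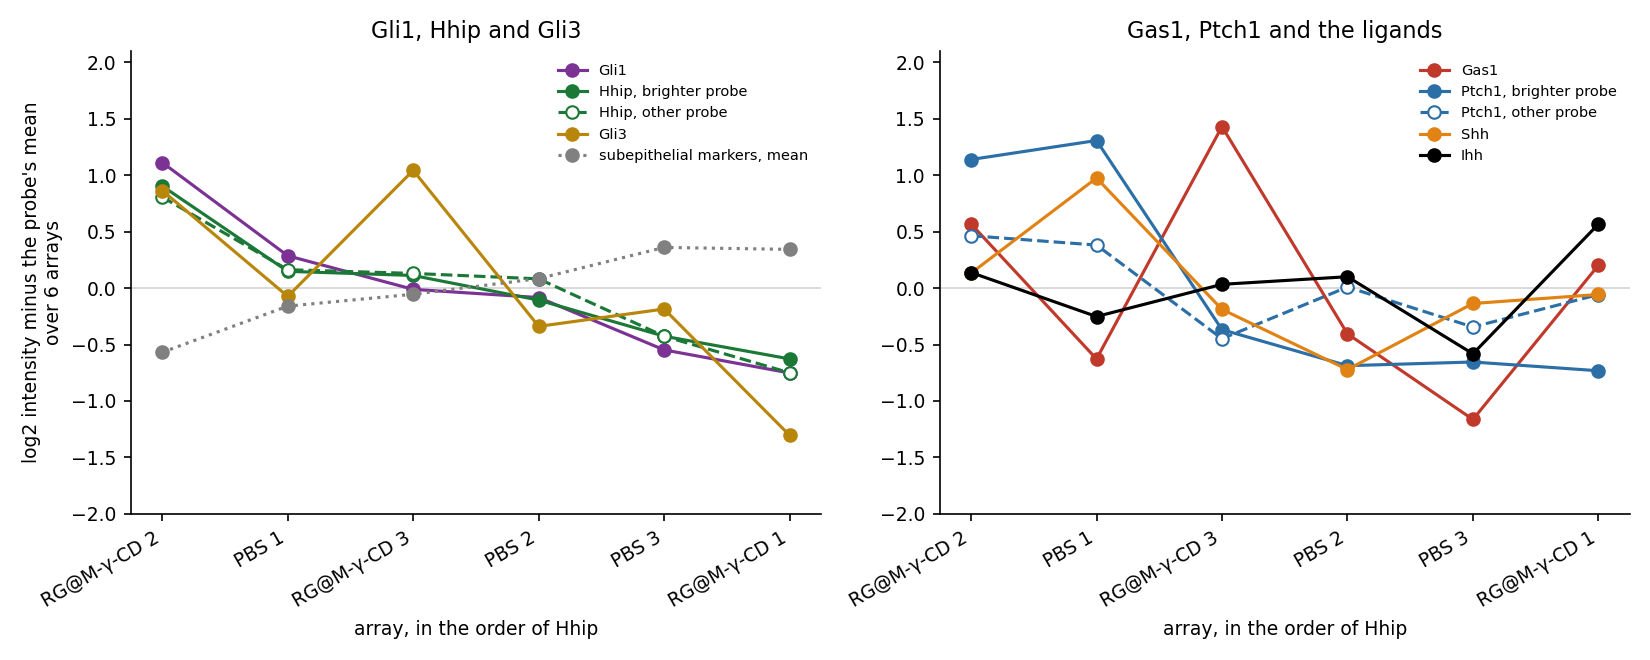
Each line is a probe's log2 intensity minus its mean over the 6 arrays (y axis), with the arrays ordered by Hhip (x axis) and lines drawn only to guide the eye. On the left Gli1 and both Hhip probes descend together while the mean of 8 subepithelial markers (grey) climbs, and Gli3 peaks at RG@M-γ-CD replicate 3. On the right Gas1, Ihh and Shh follow other orders, and Ptch1 is high on RG@M-γ-CD replicate 2 and PBS replicate 1.

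The other genes of the pathway were taken from 4 lists, which hold 38 genes tested. By adjusted p 0 of 38 passed (smallest 1.0), and 1 was higher and 0 lower at an unadjusted p below 0.05, against 0.864% and 1.33% of all genes. Of the 38 differences 19 were above 0 and 19 below, with a median of -0.004 against -0.01 over all genes. Lrp2, Kif7 and Osr1 did not pass the filter on dim signals.

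Of the genes that make, release or carry the ligand, 0 of 7 passed either threshold. The largest differences were those of Scube2, a secreted carrier of lipid-bearing Hedgehog (1.09, SE 0.75), and Disp2, a relative of the ligand exporter Disp1 (0.91, SE 0.65). Scube2 read -2.49, 0.28 and 0.34 in the RG@M-γ-CD replicates and -1.61, -1.94 and -1.59 in the PBS replicates. Replicates 2 and 3 of RG@M-γ-CD were apart from the other arrays and replicate 1 was the lowest of all, extremes also seen for Gli3. Scube1, another carrier, differed by -0.60 (SE 0.53).

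Of the genes of ligand reception, 0 of 4 passed either threshold. Gpc3, a glypican that competes with Ptch1 for ligand, differed by 0.79 (SE 0.43) and the co-receptor Cdon by 0.40 (SE 0.31), while the co-receptor Boc differed by -0.02 (SE 0.44).

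Of the genes of signal transduction, 0 of 17 passed either threshold. Evc (0.63, SE 0.55) and Evc2 (0.53, SE 0.52), which form a complex that binds Smo at the base of the cilium, were the largest, and Sufu, the cytoplasmic inhibitor of the Gli factors, differed by 0.02 (SE 0.18). Of the 17 differences 9 were above 0 and 8 below, and the lowest was -0.53. Evc2 read -1.87, 0.02 and 0.04 in the RG@M-γ-CD replicates and -1.08, -1.18 and -1.16 in the PBS replicates. It shared the order of Scube2 in its extremes, with RG@M-γ-CD replicates 2 and 3 high and replicate 1 low.

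Of the known targets in gut mesenchyme, 1 of 10 lay at an unadjusted p below 0.05. This was Nkx2-3, a homeobox factor of gut and spleen mesenchyme, at -0.39, 0.18 and -0.14 in the RG@M-γ-CD replicates and -0.80, -0.47 and -0.77 in the PBS replicates. Its groups did not overlap, as for 2.38% of all genes in this direction, and the difference of 0.56 (SE 0.20) had an unadjusted p of 0.030 and an adjusted p of 1.0 by limma. Bmp7, a signalling protein, differed by -0.60 (SE 0.62), Foxf1, a factor of gut smooth muscle, by 0.37 (SE 0.22) and Foxl1, a factor of subepithelial cells, by -0.25 (SE 0.33).

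Without RG@M-γ-CD replicate 1, 206 of 19463 genes passed the adjusted threshold in limma, 167 of them higher (0.858%). They held 3 of the 38 listed genes, Scube2 (2.02, adjusted p = 0.030), Disp2 (1.70, adjusted p = 0.036) and Evc2 (1.17, adjusted p = 0.041), each higher with RG@M-γ-CD. For each of these 3 genes the array left out was the lowest of all, so leaving it out raised the difference. These adjusted p-values are therefore no test of the groups as labelled. Among 6 settings with 1 array left out, this was the only setting with any gene past the threshold. When PBS replicate 1 was left out as well, which leaves 2 arrays against 2, 0 genes passed and 1253 lay at a fold of 2 and an unadjusted p of 0.05. The differences were then 2.07 for Scube2 (adjusted p = 0.074 in limma), 1.61 for Disp2 (0.092) and 1.20 for Evc2 (0.096).

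**Figure D3:**
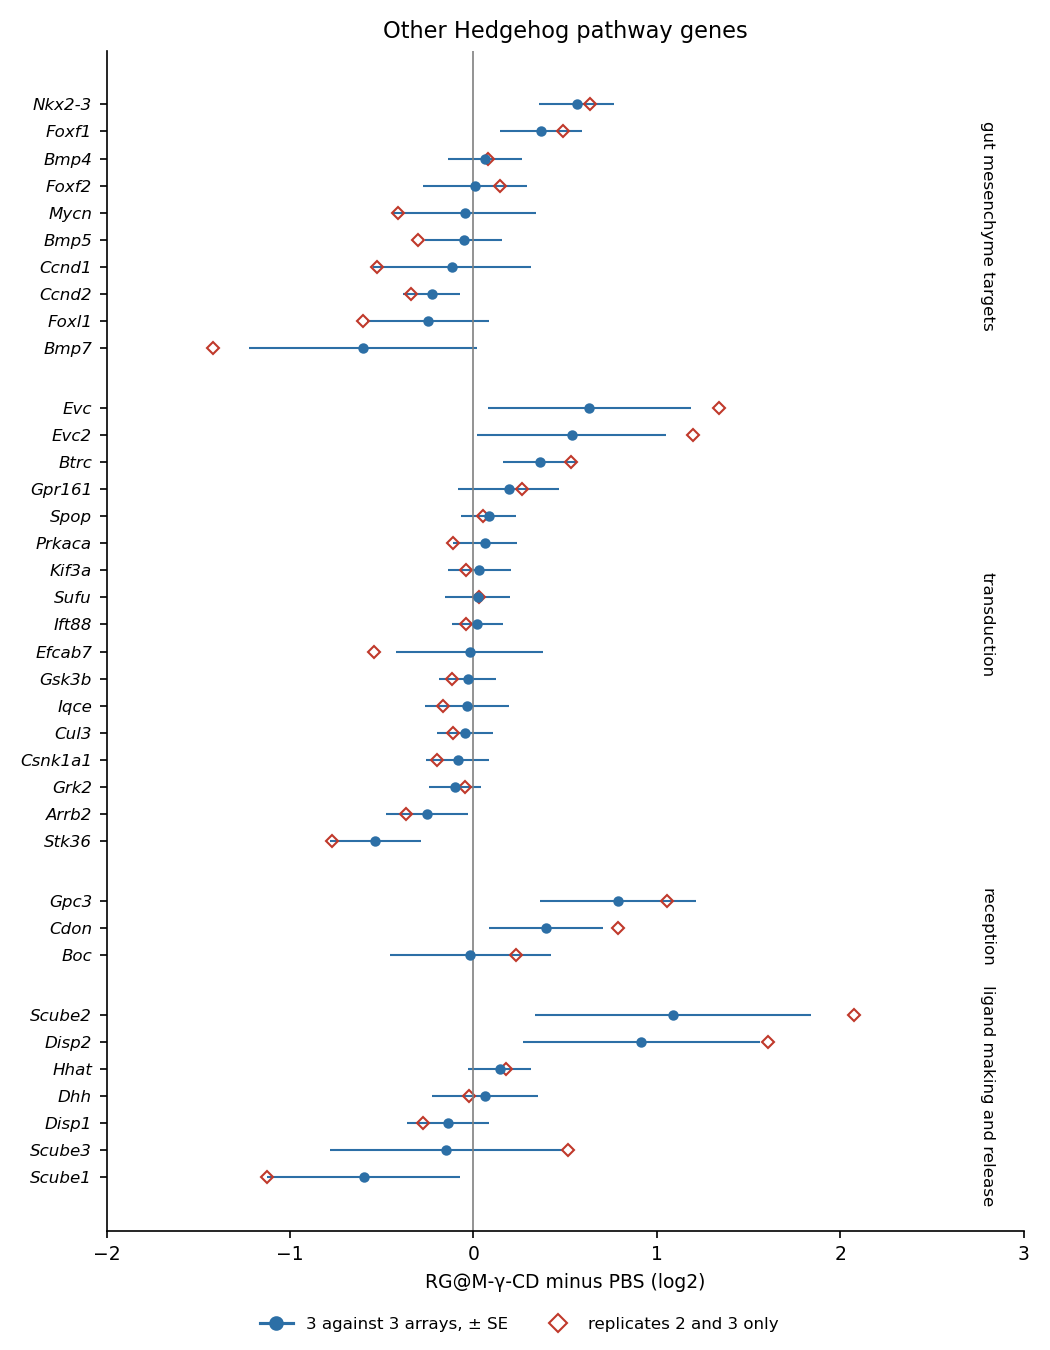
The difference between RG@M-γ-CD and PBS (x axis, log2) is plotted for 37 of the 38 other Hedgehog genes in 4 lists, as blue points with SE bars over 3 against 3 arrays and as red diamonds over replicates 2 and 3 alone. Scube2, Disp2, Evc and Evc2 lie farthest to the right when replicate 1 of both groups is left out, and most genes of transduction lie near 0 in both.

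Markers of the cells that make up the colon wall were compared with the members. Of 8 smooth muscle markers 7 were tested, and each had a higher mean with RG@M-γ-CD at an adjusted p of 1.0 by limma. Their mean level was 2.70, 5.45 and 5.79 in the RG@M-γ-CD replicates and 3.85, 3.49 and 3.83 in the PBS replicates, so that it ranged more widely within the treated group than between the groups. Gli3 followed this mean with r of 0.98 and rho of 1, and with r of 0.99 without RG@M-γ-CD replicates 2 and 3. Its r to Cnn1, a contractile protein, was 0.99 (rho 1).

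Gas1 had an r of 0.65 and a rho of 0.49 to the smooth muscle mean. This r was -0.91 without RG@M-γ-CD replicates 2 and 3 and 0.91 without RG@M-γ-CD replicate 1, so it depended on the arrays kept. In RG@M-γ-CD replicate 1 the smooth muscle mean was the lowest of all arrays, and Gas1 read -0.15. Gli1 had an r of 0.67 (rho 0.77) and Hhip of 0.76 (rho 0.77) to the same mean. The 8 fibroblast markers had a mean between 2.22 and 3.29 in the RG@M-γ-CD group and between 2.70 and 2.81 in the PBS group. This mean had an r of 0.98 (rho 0.83) to Gli3 and of 0.54 (rho 0.66) to Gas1. For Gas1 the r rose to 0.95 when RG@M-γ-CD replicate 1, the array with the lowest fibroblast mean, was dropped. It stayed at 0.95 when RG@M-γ-CD replicate 3 was dropped too. The part of smooth muscle and fibroblast content in the members' values was not tested.

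**Figure D4:**
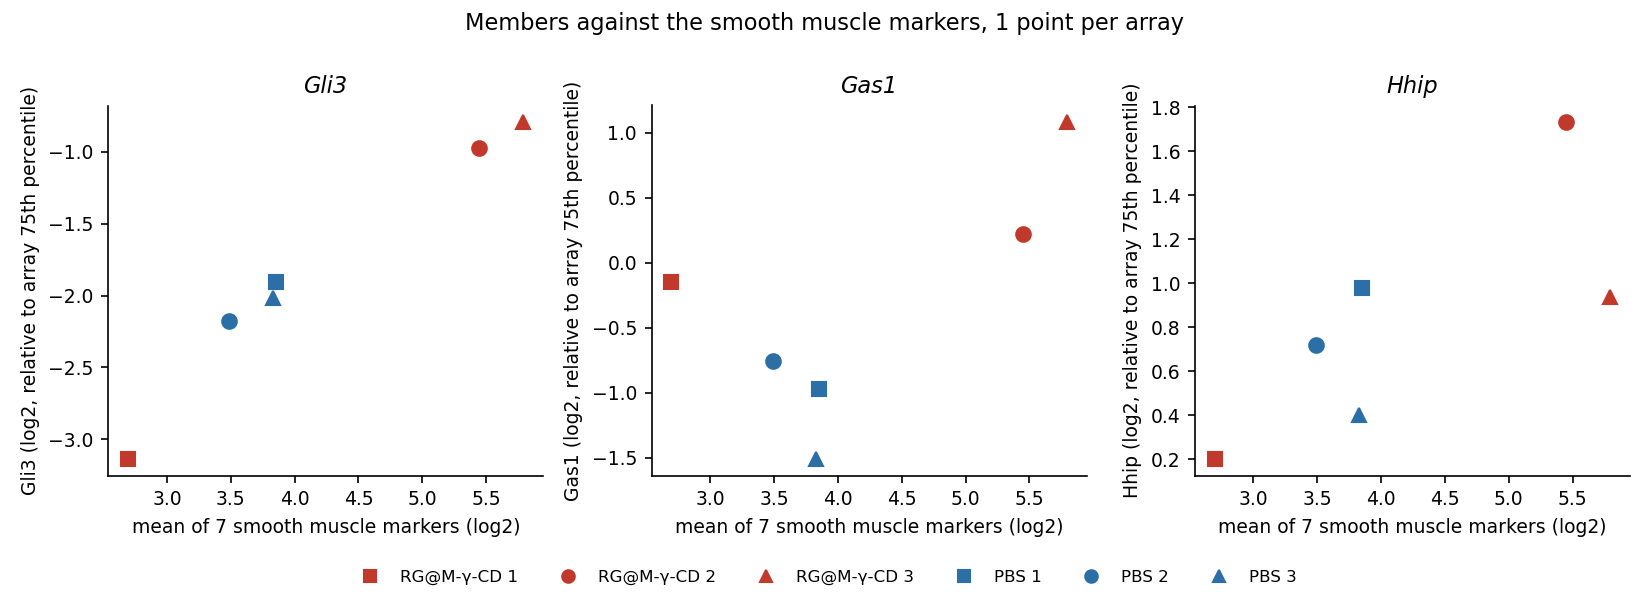
Gli3, Gas1 and Hhip (y axes, log2 relative to the array's 75th percentile) are plotted against the mean of 7 smooth muscle markers (x axis, log2), with 1 point per array, red for RG@M-γ-CD and blue for PBS. Gli3 climbs with the markers over all 6 arrays. In RG@M-γ-CD replicate 1 (red square) the marker mean, 2.70, is the lowest, and Gas1 is at -0.15.

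The mean of the markers of subepithelial stromal cells, the cells next to the epithelium, ran against the target genes. This mean of 8 genes was 1.57, 0.66 and 1.18 in the RG@M-γ-CD replicates and 1.07, 1.31 and 1.59 in the PBS replicates, and 7 of the 8 had a lower mean with RG@M-γ-CD. Its r was -0.99 (rho -0.94) to Gli1 and -0.99 (rho -0.94) to Hhip, and both stayed at -0.98 without RG@M-γ-CD replicate 2 and PBS replicate 3. Of single markers F3 had the opposite order to Gli1 (r -0.97, rho -1), while Postn ran the other way, with r of 0.80 (rho 0.83) to Gli1 and 0.86 (rho 0.83) to Hhip, or 0.28 and 0.56 without RG@M-γ-CD replicates 1 and 2. The list shares Foxl1, Bmp5 and Bmp7 with the list of targets and Pdgfra with the fibroblast markers. To Gas1 the r of the mean was -0.42 (rho -0.49).

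A marker of position along the gut also varied with the target genes. Hoxd13, a homeobox gene of the hindmost gut, read -3.77, 3.20 and 2.33 in the RG@M-γ-CD replicates and 3.35, -0.09 and -2.89 in the PBS replicates, a range of 139-fold. Its high arrays, PBS replicate 1 and RG@M-γ-CD replicates 2 and 3, were the 3 highest for Gli1, Hhip and the brighter Ptch1 probe, and its lowest array was the lowest for each. The r of Hoxd13 was 0.86 (rho 0.94) to Gli1, 0.87 (rho 0.94) to Hhip and 0.80 (rho 0.94) to Ptch1, and 0.39 (rho 0.14) to Gas1. Without RG@M-γ-CD replicate 1 and PBS replicate 3 the first of these was 0.63. Hoxa13 and Hoxb13, also posterior genes, varied by 1.30-fold and 1.57-fold only. The stretch of colon taken from each mouse is not given in the sources used here, and its part in the members' values was not tested.

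The other marker lists differed in how they ran with the members. The 8 markers of enteric neurons and glia had a mean between -1.89 and 0.02 with RG@M-γ-CD and between -1.28 and -0.83 with PBS, with r of 0.97 (rho 0.83) to Gli3. The mean of 6 markers of mature colonocytes was 1.09 to 3.83 with RG@M-γ-CD and 2.46 to 3.52 with PBS. Its r was 0.85 (rho 0.83) to Gli3, and 0.86 without RG@M-γ-CD replicate 1 and PBS replicate 1. To Ihh its r was -0.56 (rho -0.26), and -0.02 without the same arrays. The mean of 5 of 8 squamous epithelium markers was 0.36 to 0.89 with RG@M-γ-CD and 1.23 to 1.48 with PBS, and its r to Gas1 was -0.72 (rho -0.77). Of these markers only Krt6a was apart between the groups, as were 2.19% of all genes in this direction. Krt13, Krt14, Sprr1a and Trp63 overlapped. Of 8 exocrine pancreas markers 3 were tested, with a mean of -1.66 to -1.27 with RG@M-γ-CD and -0.42 to 2.36 with PBS. Prss2 was well above background only on the 3 PBS arrays. Ctrb1, well above background on 5 arrays, differed by -2.16 (unadjusted p = 0.10 by limma). Cela1, bright on all 6 arrays, overlapped between the groups. The mean of the 6 endothelial markers was -0.73 to -0.29 with RG@M-γ-CD and -1.15 to -0.57 with PBS, and each had a higher mean with RG@M-γ-CD. Its r was 0.66 (rho 0.71) to Gas1, 0.74 (rho 0.49) to Gli1, 0.75 (rho 0.49) to Hhip and -0.82 (rho -0.66) to Smo, which without PBS replicate 3 and RG@M-γ-CD replicate 2 were 0.34, 0.09, 0.21 and 0.01. The mean of 7 of 8 leukocyte markers was 1.30 to 1.65 with RG@M-γ-CD and 1.61 to 2.25 with PBS, with an r of -0.65 (rho -0.60) to Gas1. The mean of the 8 colon epithelium markers ran against Shh, with r of -0.92 (rho -1) and the same r without PBS replicates 1 and 2. The part of these cells in the members' values was not tested.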

How the data were processed

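RNA of tumor-bearing colon from 6 mice, 3 per group, was hybridised to one-colour Agilent mouse arrays. The authors deposited the intensity of each spot as given by Agilent Feature Extraction 10.7.1.1, background-subtracted and detrended, with no scaling across arrays. A second table of the authors gives log2 values per probe, and its columns have 1 common minimum (2.04) and 1 common maximum (18.1). The work was done in R 4.3.3 from the intensities. Control and outlier spots (790 of the latter over 6 arrays) were left out, log2 values of a probe's spots were averaged, and the 75th percentile of each array was subtracted. Symbols of 32994 of 56605 probes (58.3%) came from RefSeq accessions and the rest from the files. Features had to be well above background on every array of at least 1 group, and the brightest per gene was tested with limma 3.58.1, Benjamini-Hochberg adjustment and a threshold of 0.05. Precision is limited by 3 arrays per group, and with 3 against 3 the smallest two-sided p of an exact permutation test is 0.10. Groups came from the labels, and p-values measure the spread between these mice.

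The members, lists and tests were chosen with earlier results of these data known. Named were all members, in each of 4 Hedgehog lists every gene whose unadjusted p was below 0.05, the 2 largest differences, and for Gas1 and Ihh the 5 genes of highest r. Some genes that fall under these rules are not reported here. Boc, Sufu, Foxf1, Foxl1 and Scube1 were named for their roles after their values were seen. The fit was tested on simulated data. Arrays were not paired by replicate number in the test. Alternatives covered background correction, normalization, the authors' table, the filter, the choice of probe, outlier spots, the block, the t-test, the slide row and arrays left out.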

Additional observations from a re-analysis of the deposited data

How the results depend on the processing

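The number of genes past the adjusted threshold was 0 in limma under 11 alternatives and by the methods' t-test, and between 0 and 206 when 1 array was left out, with 206 without RG@M-γ-CD replicate 1 and 0 without any other. Among the 38 other Hedgehog genes it was 0 under the same alternatives and between 0 and 3 when 1 array was left out. At a fold of 2 and an unadjusted p of 0.05 there were 107 genes. This count was 46 with normexp background correction, 327 with no filter on dim probes, 45 by the methods' t-test, 303 with slide row as a covariate, 1253 without RG@M-γ-CD replicate 1 and PBS replicate 1 together, and between 100 and 1140 when 1 array was left out. The median difference of the other Hedgehog genes was 0.20 with slide row as a covariate, where the median of all genes was 0.10, and between -0.064 and 0.090 when 1 array was left out. The cause of these shifts was not tested.

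Gas1 differed by 1.24 to 1.78 under 11 alternatives and by 1.12 to 1.73 when 1 array was left out. Of 139 values of the members under the alternatives, 137 moved by less than 1 SD between replicates. The others were Ptch1 (-1.29) and Shh (-1.01) with slide row as a covariate. An SD between replicates is a wide measure where replicates differ much. Over replicates 2 and 3 alone Ptch1 went from 0.02 to 1.06 and Gli3 from 0.40 to 1.21, and both counted as within 1 SD. Of the same 139 values, 122 kept the sign of the member's difference over all arrays. When 1 array was left out, the differences ranged from -0.54 to 0.68 for Ptch1, from -0.27 to 0.66 for Gli1, from -0.02 to 1.15 for Gli3, from -0.13 to 0.64 for Hhip, from -0.46 to 0.39 for Shh and from -0.12 to 0.10 for Smo, so that each crossed 0, while Ihh lay between 0.32 and 0.66. The r of Gli1 and Hhip was between 0.974 and 0.998 when 1 array was left out, and that of Gas1 and Ihh between 0.23 and 0.83.

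With the replicate number as a block, 0 genes passed the adjusted threshold, 145 lay at a fold of 2 and an unadjusted p of 0.05, and the difference of Gas1 was 1.46 (SE 0.42). Same-numbered arrays deviated from their group means with r of -0.25, -0.23 and 0.14, and arrays of unlike number with r from -0.33 to 0.41. With 3 arrays per group these values cannot decide whether the numbers pair the arrays. The block changed no call. Dim signals limit Gli2, which no alternative with a filter could measure.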
